A study of Mus musculus with 10 samples.

Results

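The genes described here are the 33 members of a list of glycolysis enzymes and of the proteins that bring glucose into the pathway, out of 55450 genes in a table of read counts from mouse corneal endothelium. The list was given by name and was chosen with earlier results of these data known, so no test was run over the list as a whole. It holds glucose transporters, the enzymes of the steps from glucose to pyruvate with their isoforms and the enzymes that set fructose-2,6-bisphosphate. It also holds 2 fructose-1,6-bisphosphatases, 2 side entries and the kinases that switch off pyruvate dehydrogenase. RNA came from peelings of the corneal endothelium, the cell layer that lines the back of the cornea and pumps fluid out of it. The KO group was 5 samples from mice with the genotype Slc4a11-/-, and the WT group was 5 samples from Slc4a11+/+ mice. All were C57BL/6 mice of postnatal week 12, and each sample pooled 6 peelings from 3 animals, so that a replicate is a pool and not an animal. The labels give the genotype and not the part of the gene that was removed, the sex of the animals or a sequencing batch. Slc4a11, a membrane transporter of this cell layer, had 70.1 to 114 CPM (counts per 1000000 counts of the library after scaling between libraries) in KO libraries, against 3489 to 4357 CPM in WT libraries.

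Glycolysis turns glucose into pyruvate in the cytosol and yields ATP without oxygen. Its flow is set mainly at glucose uptake, at hexokinase, at phosphofructokinase and at pyruvate kinase, and many of its genes are known targets of the hypoxia-inducible factors. The corneal endothelium is known for a high demand for ATP, spent on ion pumps, and for making lactate from glucose and passing it to the aqueous humour.

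Total counts ranged from 36026193 to 51008996 per library. All 15 markers of corneal endothelium were detected, with a summed level of 32472 to 38914 CPM in KO and 33895 to 38201 CPM in WT libraries, and 4 of the 15 were lower in KO and none higher. The peelings also held other cells. The summed level of 20 corneal epithelium markers was 5043 to 10808 CPM in KO and 3945 to 5316 CPM in WT libraries, 14 of the 20 were higher in KO, and none was at 0 in all libraries. Most of that sum was Aldh3a1, which did not pass (5497 CPM in KO, 4510 CPM in WT), and the median log2 fold change of the 20 markers was 3.16; the keratin gene Krt5 averaged 394 CPM in KO and 20.7 CPM in WT. Among KO libraries, the sum was lowest in KO 3 and KO 4 (5079 and 5043 CPM) and highest in KO 5. The mean log2 CPM of the 20 markers was 5.67, 4.10, 1.43, 3.16 and 6.00 in KO 1 to KO 5, against 1.31 to 2.82 in WT libraries, so that by this measure KO 3 lay within the WT range and KO 4 above it. The 14 markers of stromal keratocytes summed to 71140 to 95242 CPM in KO and 67970 to 104320 CPM in WT libraries. Of the 14, 2 were lower, Kera (log2 fold change -0.48) and Ptgds (-0.83), and none was higher, with a median of -0.09. The 10 markers of pigment cells and iris summed to 22.8 to 47.5 CPM in KO and 40.0 to 49.8 CPM in WT libraries. Most of this was the smooth muscle gene Myh11, which was lower (26.2 CPM in KO, 39.6 CPM in WT); the other 3 tested, Dct, Tyrp1 and Pmel, had positive fold changes that did not pass, and the median of the 4 was 0.80. The 8 markers of vascular endothelium summed to 405 to 499 CPM in KO and 438 to 518 CPM in WT. Most of this was Erg (349 CPM in KO, 340 CPM in WT) and Kdr, which was lower (84.2 CPM in KO, 121 CPM in WT); none of the 7 tested was higher, and their median log2 fold change was 0.95. Markers of immune cells summed to 191 to 295 CPM in KO and 162 to 259 CPM in WT, with none of 7 tested called and a median of 0.24. Those of lens summed to 10.9 to 17.9 CPM in KO and 7.94 to 11.7 CPM in WT, with 2 of 4 tested higher. Of these markers only Lim2, of the lens, was at 0 in all libraries. The part of these cells in the results was not tested beyond the epithelial and keratocyte covariates and the fit with KO 3 and KO 4. In bulk RNA of this kind, fewer cells of a type and less RNA per cell cannot be told apart.

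Most of the pathway was lower in KO. Of the 33 members, 30 had enough counts to be tested, 18 of them were lower in KO, none was higher and 12 did not pass the test (edgeR's quasi-likelihood test with Benjamini-Hochberg adjustment over the 17729 genes tested, threshold 0.05). Over all genes tested, 7.73% were lower and 7.59% were higher in KO. In 15 members the fall was at least 0.5 on the log2 scale, a size that 3.65% of all genes tested reached with a call. The median log2 fold change of the tested members, KO over WT, was -0.50, against 0.00 over all genes. In 19 members every KO library lay below every WT library, which 6.16% of all genes showed; in 1 member, Bpgm, every KO library lay above every WT library, which 5.88% of all genes showed. The summed level of the members was 4063 to 4283 CPM in KO libraries and 5328 to 7214 CPM in WT libraries. When only KO 3 and KO 4, whose epithelial sums were the lowest of the KO libraries, were set against WT, 14 members were lower and the median was -0.49. With the epithelial marker level as a covariate, 15 were lower and the median was -0.52.

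**Figure D1:**
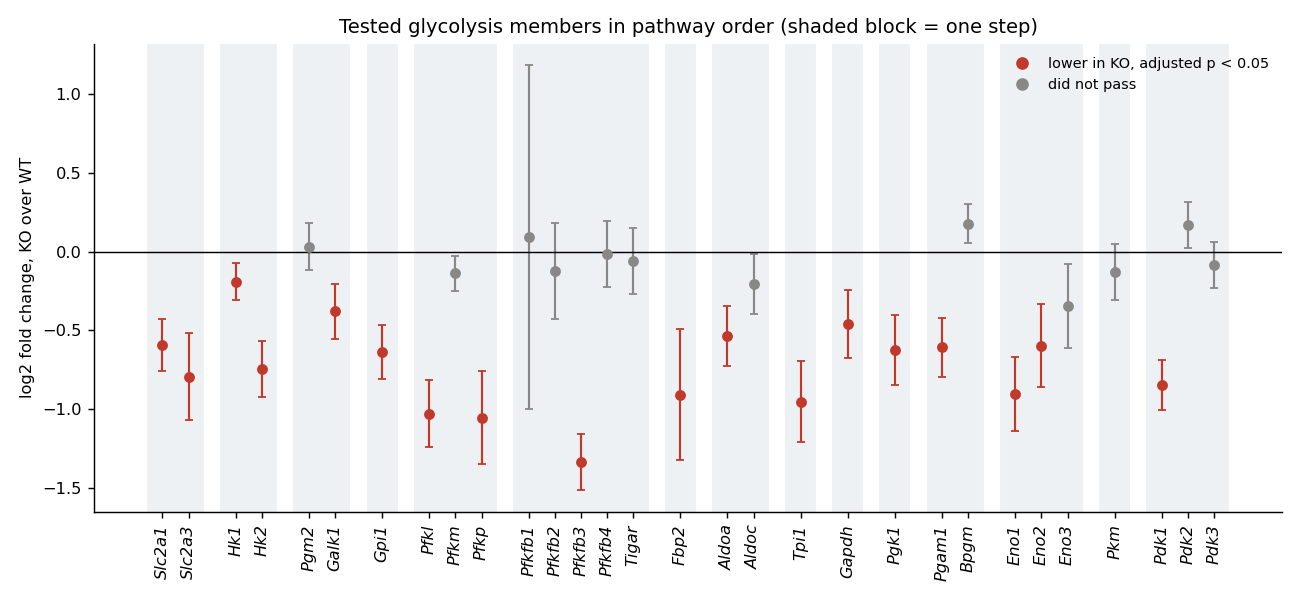
Log2 fold change, KO over WT, of the 30 tested members in the order of the pathway, with 95% confidence intervals from the edgeR fit; each shaded block is 1 step and red marks members that passed the test. The lowest point is Pfkfb3 at -1.34, no red point lies above 0, and most steps with several isoforms hold both red and grey points.

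Promoter sequence was read for 32 of the members from RefSeq (GRCm38.p6), as the 250 bases before each annotated start, in 50 windows. ACGTG and GCGTG, searched on both strands, are the core letters of the motif of the hypoxia-inducible factors. A CACGTG, the letters of the E-box, holds ACGTG on both strands. The 5 windows shown are those of 4 members that were lower in KO, with and without the core letters, and of Pfkm, which did not pass the test. Of the windows of Pfkfb3 and Pfkm 1 each is shown: the other window of Pfkfb3 has 3 of the core letter runs, among them a CACGTG, and the other 3 windows of Pfkm have 2, 1 and 0. The windows run 5′ to 3′ on the strand of the gene, and capitals mark ACGTG or GCGTG on either strand.
Pfkfb3 (GRCm38.p6, chr2:11553930-11554179, minus strand): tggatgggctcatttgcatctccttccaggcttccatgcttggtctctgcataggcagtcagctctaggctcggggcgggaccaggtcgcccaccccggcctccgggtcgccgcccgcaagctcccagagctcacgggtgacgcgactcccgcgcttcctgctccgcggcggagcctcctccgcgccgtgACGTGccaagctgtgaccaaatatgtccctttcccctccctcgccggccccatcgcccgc
Hk2 (GRCm38.p6, chr6:82774455-82774704, minus strand): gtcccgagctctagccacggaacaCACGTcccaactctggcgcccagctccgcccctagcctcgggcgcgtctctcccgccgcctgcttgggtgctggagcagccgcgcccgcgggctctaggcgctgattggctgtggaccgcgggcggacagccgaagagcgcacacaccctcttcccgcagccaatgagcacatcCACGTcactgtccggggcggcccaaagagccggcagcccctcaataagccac
Pgam1 (GRCm38.p6, chr19:41911621-41911870, plus strand): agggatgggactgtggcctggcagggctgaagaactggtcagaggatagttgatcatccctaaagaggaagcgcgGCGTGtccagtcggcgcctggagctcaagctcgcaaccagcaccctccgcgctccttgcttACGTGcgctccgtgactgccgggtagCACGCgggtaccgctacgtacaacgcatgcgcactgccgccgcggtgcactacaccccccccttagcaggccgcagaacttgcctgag
Tpi1 (GRCm38.p6, chr6:124814159-124814408, minus strand): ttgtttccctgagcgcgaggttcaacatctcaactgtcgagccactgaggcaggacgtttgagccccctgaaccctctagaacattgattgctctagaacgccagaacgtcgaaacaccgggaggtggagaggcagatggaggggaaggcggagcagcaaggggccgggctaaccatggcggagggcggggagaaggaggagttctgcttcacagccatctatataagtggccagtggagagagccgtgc
Pfkm (GRCm38.p6, chr15:98092339-98092588, plus strand): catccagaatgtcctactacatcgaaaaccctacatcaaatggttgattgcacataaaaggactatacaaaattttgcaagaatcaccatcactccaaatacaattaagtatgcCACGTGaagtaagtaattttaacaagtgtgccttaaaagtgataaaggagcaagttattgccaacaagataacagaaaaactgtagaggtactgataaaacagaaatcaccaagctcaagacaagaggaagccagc

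ACGTG or GCGTG stood in 18 of 24 windows of members that were lower in KO and in 15 of 23 windows of tested members that did not pass, against 38.6% of 32851 promoter windows of the same length. ACGTG alone stood in 41.7% of the windows of lower members, 34.8% of the windows of members that did not pass and 16.6% of all windows. CACGTG stood in 12.5% of the windows of lower members, 13% of the windows of members that did not pass and 6.02% of all windows. Counted by gene, 14 of 17 lower members and 10 of 12 members that did not pass had either core in at least 1 window. A gene with several windows has more chances of a match, and the share by gene over all genes was not worked out. These counts by gene therefore cannot be set against the 38.6% of windows. Tpi1, among the members with the lowest fold change, has neither core in its window. A match is a run of letters and not a binding site.

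Glucose enters these cells through facilitative transporters of the Slc2a family. Slc2a1, which encodes GLUT1 (ENSMUSG00000028645.11, chromosome 4, 119108711 to 119137983), had 293, 233, 283, 286 and 247 CPM in KO 1 to KO 5, against 432, 400, 377, 388 and 425 CPM in WT 1 to WT 5. The highest KO library lay below the lowest WT library. The mean was 268 ± 26.8 CPM in KO and 404 ± 23.7 CPM in WT (SD, n = 5 each), with a log2 fold change of -0.59 (SE 0.08, adjusted p = 0.00042). Slc2a3, which encodes the high-affinity transporter GLUT3 (chromosome 6, 122727809 to 122801640), had 11.8, 8.26, 14.3, 12.4 and 10.9 CPM in KO libraries, against 18.3, 19.0, 23.5, 18.5 and 20.6 CPM in WT libraries. Again the groups did not overlap, and the log2 fold change was -0.79 (SE 0.13, adjusted p = 0.0017). Per kilobase of exon, Slc2a1 made up 98.0% ± 0.25 of the 2 transporters in KO and 97.7% ± 0.35 in WT, so the level of the step was nearly that of Slc2a1. The sum of both was 66.1% of its WT level.

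Hexokinase traps glucose in the cell as glucose-6-phosphate. Hk2, an isoform bound to mitochondria and known from muscle, fat and tumours (ENSMUSG00000000628.10, chromosome 6, 82725025 to 82774454), had 35.0, 27.6, 32.9, 31.3 and 28.1 CPM in KO libraries, against 50.3, 49.2, 59.6, 47.7 and 52.9 CPM in WT libraries. No KO library reached the lowest WT library. The log2 fold change of Hk2 was -0.75 (SE 0.08, adjusted p = 0.00013). Hk1, the hexokinase of most tissues, had 70.2, 65.4, 71.4, 68.4 and 63.2 CPM in KO libraries, against 82.8, 75.9, 72.4, 77.7 and 77.8 CPM in WT libraries. The groups of Hk1 nearly met at KO 3 and WT 3, but did not overlap. Its fall was small, with a log2 fold change of -0.19 (SE 0.05, adjusted p = 0.032), and the call was lost in 13 of 21 other settings. Hk1 therefore made up 60.5% ± 1.43 of hexokinase counts per kilobase in KO and 51.03% ± 3.07 in WT, and Hk2 made up 39.4% ± 1.47 in KO and 48.9% ± 3.07 in WT. Neither pair of ranges overlapped. Hkdc1, a hexokinase-like gene, was not tested, with 0 to 6 counts per library.

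2 genes feed sugar phosphates into the pathway from the side. Galk1, which phosphorylates galactose, had 41.1, 42.6, 47.4, 47.9 and 48.7 CPM in KO libraries, against 69.6, 61.1, 51.6, 57.7 and 56.2 CPM in WT libraries. The groups did not overlap and the log2 fold change was -0.38 (SE 0.08, adjusted p = 0.0088). With only KO 3 and KO 4 set against WT it was -0.31 and did not pass (adjusted p = 0.13). Pgm2 averaged 19.4 ± 1.79 CPM in KO and 19.0 ± 0.84 CPM in WT (log2 fold change 0.03, 95% interval -0.12 to 0.18). The symbol Pgm2 stands here for the gene on chromosome 5; the phosphoglucomutase gene on chromosome 4, Pgm1 in this annotation, has been called Pgm2 before. Pgm1 averaged 118 ± 6.73 CPM in KO and 170 ± 23.0 CPM in WT, with a log2 fold change of -0.53 (SE 0.09, adjusted p = 0.0018).

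Glucose-6-phosphate isomerase makes fructose-6-phosphate. Its gene Gpi1 (ENSMUSG00000036427.5, chromosome 7, 34201330 to 34230336) had 246, 240, 241, 236 and 248 CPM in KO libraries, against 452, 393, 332, 348 and 360 CPM in WT libraries. The 5 KO libraries lay close together and all lay far below the lowest WT library. The log2 fold change was -0.64 (SE 0.08, adjusted p = 0.00033).

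Phosphofructokinase commits the sugar to glycolysis, and its 3 isoforms did not change alike. Pfkl, the liver-type subunit (ENSMUSG00000020277.10, chromosome 10, 77986947 to 78010083), had 139, 137, 160, 148 and 141 CPM in KO libraries, against 351, 333, 268, 244 and 282 CPM in WT libraries. Pfkp, the platelet-type subunit, had 59.2, 45.7, 67.0, 73.7 and 58.3 CPM in KO libraries, against 143, 149, 124, 97.2 and 118 CPM in WT libraries. In both genes every KO library lay below every WT library, and the KO mean was 49.0% of the WT mean for Pfkl and 48.1% for Pfkp. The log2 fold change was -1.03 for Pfkl (SE 0.10, adjusted p = 4.9e-05) and -1.06 for Pfkp (SE 0.14, adjusted p = 0.00042). Pfkp shares 748 exonic bases, 5.58% of its own, with Pitrm1 on the other strand, and without a stated strand setting the reads of these bases cannot be told apart. Pitrm1, a mitochondrial peptidase, was higher in KO, at 47.7 CPM in KO and 41.2 CPM in WT (log2 fold change 0.21, adjusted p = 0.043). With every Pitrm1 count added to Pfkp, an alternative chosen after the data had been seen, the sum was 108 ± 13.4 CPM in KO and 168 ± 21.8 CPM in WT, with a log2 fold change of -0.63 (adjusted p = 0.0022). Hk1, Pfkm, Aldoa, Tpi1 and Gapdh share 18 to 157 exonic bases with genes of the other strand. Pfkfb2 shares 154 with Yod1 and Pfkfb1 123 with Apex2. Apex2 averaged 4.10 CPM in KO and 3.94 CPM in WT, well above Pfkfb1 (0.28 CPM in KO, 0.26 CPM in WT). Gpi1, Tigar and Slc2a1 share 741, 122 and 105 with genes of at most 0.062 CPM by total counts.

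Pfkm, the muscle-type subunit (ENSMUSG00000033065.14, chromosome 15, 98092589 to 98132451), had 89.6, 91.6, 94.99, 96.4 and 87.0 CPM in KO libraries, against 109, 102, 96.9, 98.2 and 100 CPM in WT libraries. The groups did not overlap, but KO 4 and WT 3 were nearly level, and the log2 fold change of -0.14 did not pass (SE 0.05, adjusted p = 0.086). The makeup of the step thus differed between the genotypes. Pfkm made up 51.2% ± 1.43 of phosphofructokinase counts per kilobase in KO and 36.3% ± 2.75 in WT. By this measure it was the most abundant subunit in every KO library. Pfkl made up 40.4% ± 0.98 in KO and 52.5% ± 2.13 in WT, and was the most abundant subunit in every WT library. The order in KO depended on the division by exon length, 6675 bases for Pfkl and 3340 for Pfkm. In CPM, Pfkl lay above Pfkm in every KO library, at 137 to 160 against 87.0 to 96.4 CPM. Pfkp was the least abundant per kilobase, at 8.40% ± 1.12 in KO and 11.2% ± 0.87 in WT, with an exon length of 13401 bases. In CPM, its mean lay below that of Pfkm in KO (60.8 against 91.9) but above it in WT (126 against 101).

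**Figure D2:**
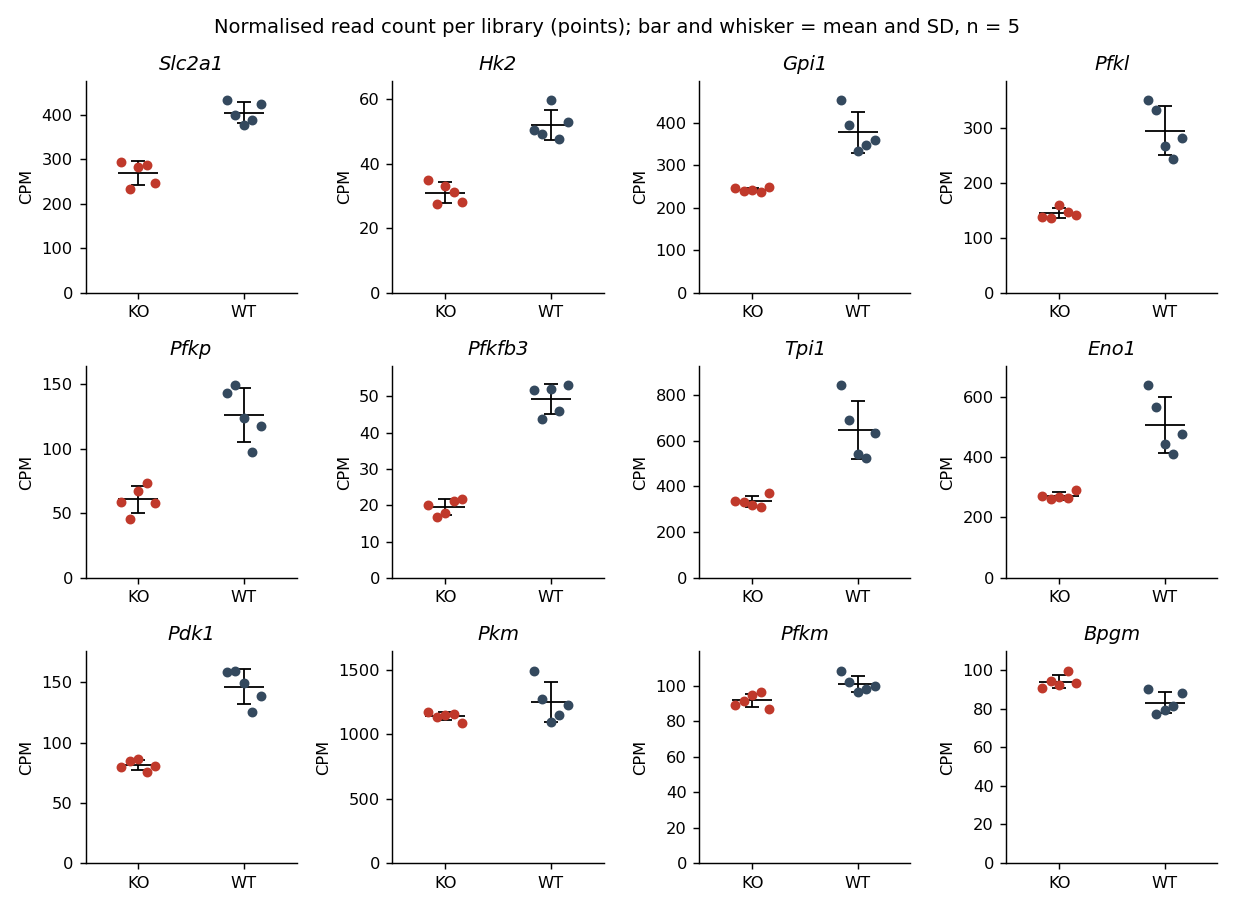
Normalised read count in CPM of 12 members in each of the 5 KO and 5 WT libraries (points), with the mean (bar) and the SD (whisker). In the first 9 panels, Slc2a1 to Pdk1, every KO point lies below every WT point; the groups overlap in Pkm, lie close together in Pfkm and are reversed in Bpgm, where every KO point lies above every WT point.

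Fructose-2,6-bisphosphate is the strongest known activator of phosphofructokinase, and it is made and removed by the bifunctional Pfkfb enzymes. Pfkfb3, the isoform with the highest kinase activity relative to phosphatase (ENSMUSG00000026773.19, chromosome 2, 11471433 to 11554077), had 20.1, 16.7, 17.9, 21.1 and 21.6 CPM in KO libraries, against 51.6, 43.7, 51.9, 45.9 and 53.0 CPM in WT libraries. The groups were far apart. Its KO mean was 39.6% of the WT mean, and its log2 fold change of -1.34 (SE 0.08, adjusted p = 3.7e-06) was the lowest of all tested members. By p it ranked 7 among all 17729 genes tested. The fold change stayed between -1.39 and -1.28 over all 21 other settings tried.

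The other genes of this step did not pass the test, and their groups overlapped. Pfkfb4 averaged 9.44 ± 1.01 CPM in KO and 9.54 ± 1.03 CPM in WT (log2 fold change -0.02, 95% interval -0.23 to 0.20). Tigar, a phosphatase that lowers fructose-2,6-bisphosphate, averaged 7.86 ± 0.73 CPM in KO and 8.19 ± 0.88 CPM in WT (log2 fold change -0.06, 95% interval -0.27 to 0.15). Pfkfb2, known from heart, averaged 8.52 ± 1.17 CPM in KO and 9.29 ± 1.79 CPM in WT (log2 fold change -0.12, 95% interval -0.43 to 0.18). The interval of Pfkfb1, known from liver and muscle, ran from -0.999 to 1.18 because it had 3 to 21 counts per library, so a change of up to about that size was not detectable. Pfkfb2 shares 1262 exonic bases with the gene model Gm29427 on its own strand, and reads of those bases may have been counted for neither or for either.

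Pfkfb3 made up 32.6% ± 2.17 of the counts per kilobase of these 5 genes in KO and 54.1% ± 3.51 in WT. Pfkfb4 made up 24.5% ± 1.90 in KO and 16.3% ± 1.76 in WT, and Tigar 27.2% ± 1.75 in KO and 18.5% ± 0.93 in WT. The ranges of KO and WT libraries did not overlap for these 3 genes.

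Fructose-1,6-bisphosphatase runs the phosphofructokinase step backwards. Fbp2, the muscle isoform, was scarce, with 25 to 97 counts per library, and had 0.67, 0.76, 0.98, 0.67 and 0.88 CPM in KO libraries, against 1.25, 1.14, 1.80, 1.32 and 1.92 CPM in WT libraries. The groups did not overlap and the log2 fold change was -0.91 (SE 0.19, adjusted p = 0.0086). The summed level of 10 skeletal muscle markers was 9.51 to 13.8 CPM in KO and 5.16 to 6.62 CPM in WT libraries, and 2 of the 6 that were tested, Myh1 and Myh2, were higher in KO; none of the 10 was at 0 in all libraries. Myh2 made up the largest part of the sum in KO, at 5.51 CPM in KO and 1.52 CPM in WT. The other 4 tested did not pass, with log2 fold changes of -0.54 to 0.02, and the median of the 6 was -0.19. The fall of Fbp2 did not pass with KO 3 and KO 4 alone (log2 fold change -0.84, adjusted p = 0.12) or with the epithelial covariate (-0.75, adjusted p = 0.10). Fbp1, the liver isoform, was not tested, with 0 to 3 counts per library.

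Aldolase splits the 6-carbon sugar. Aldoa, the form of muscle and most tissues (ENSMUSG00000030695.16, chromosome 7, 126795234 to 126800751), had 547, 533, 554, 539 and 598 CPM in KO libraries, against 953, 847, 706, 695 and 814 CPM in WT libraries. Every KO library lay below every WT library, and the log2 fold change was -0.54 (SE 0.09, adjusted p = 0.0020). Aldoc, the brain form, averaged 62.9 ± 2.52 CPM in KO and 72.5 ± 10.7 CPM in WT, and its groups overlapped (log2 fold change -0.21, SE 0.09, adjusted p = 0.13). Aldoc was the minor form in both genotypes, at 9.21% ± 0.64 of aldolase counts per kilobase in KO and 7.44% ± 0.31 in WT.

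Triosephosphate isomerase, the next enzyme, has 1 gene, and its step had the lowest level in KO relative to WT of all steps. Tpi1 (ENSMUSG00000023456.15, chromosome 6, 124810586 to 124814296) had 337, 333, 318, 310 and 370 CPM in KO libraries, against 841, 691, 544, 524 and 633 CPM in WT libraries. The groups were far apart, with WT 1 the highest library. The KO mean was 51.6% of the WT mean and the log2 fold change was -0.95 (SE 0.12, adjusted p = 0.00033).

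Glyceraldehyde-3-phosphate dehydrogenase, whose gene Gapdh is often used as a constant reference in expression assays, was lower in KO as well. Gapdh (ENSMUSG00000057666.18, chromosome 6, 125161715 to 125166467) had 154, 154, 153, 151 and 164 CPM in KO libraries, against 279, 207, 183, 190.5 and 208 CPM in WT libraries. The groups did not overlap, and WT 1 stood well above the other WT libraries. The log2 fold change was -0.46 (SE 0.10, adjusted p = 0.010), -0.34 without WT 1, and -0.48 with only KO 3 and KO 4 set against WT, where it did not pass (adjusted p = 0.090).

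Phosphoglycerate kinase makes the first ATP of the pathway. Pgk1 (ENSMUSG00000062070.12, chromosome X, 106187100 to 106203699) had 249, 212, 268, 279 and 258 CPM in KO libraries, against 455, 430, 355, 323 and 390 CPM in WT libraries. No KO library reached a WT library, and the log2 fold change was -0.62 (SE 0.10, adjusted p = 0.0019).

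Phosphoglycerate mutase moves the phosphate group, and its 2 expressed genes had fold changes of opposite sign, of which the negative passed the test. Pgam1, the form of most tissues (ENSMUSG00000011752.7, chromosome 19, 41911923 to 41918660), had 175, 160, 171, 167 and 170 CPM in KO libraries, against 314, 265, 237, 218 and 251 CPM in WT libraries. It was lower in every KO library than in any WT library, with a log2 fold change of -0.61 (SE 0.09, adjusted p = 0.00083). Bpgm, which makes 2,3-bisphosphoglycerate and is best known from red blood cells (ENSMUSG00000038871.5, chromosome 6, 34476207 to 34505613), had 90.8, 94.2, 92.2, 99.7 and 93.0 CPM in KO libraries, against 89.9, 77.3, 79.0, 81.4 and 87.9 CPM in WT libraries. Every KO library of Bpgm lay above every WT library, though KO 1 and WT 1 nearly met. The log2 fold change of 0.18 did not pass (SE 0.06, adjusted p = 0.051); it passed with total counts, in DESeq2, with the filter at 1 CPM, with the keratocyte covariate and without WT 1.

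No red blood cell marker that was tested was higher in KO, and the 7 in the table summed to 4.19 to 27.1 CPM in KO and 16.3 to 87.6 CPM in WT libraries, none at 0 in all libraries. Bpgm made up 23.6% ± 1.08 of the mutase counts per kilobase in KO and 15.3% ± 1.49 in WT, with no overlap between the ranges. Pgam2, the muscle form, was not tested, with 0 to 4 counts per library.

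**Figure D3:**
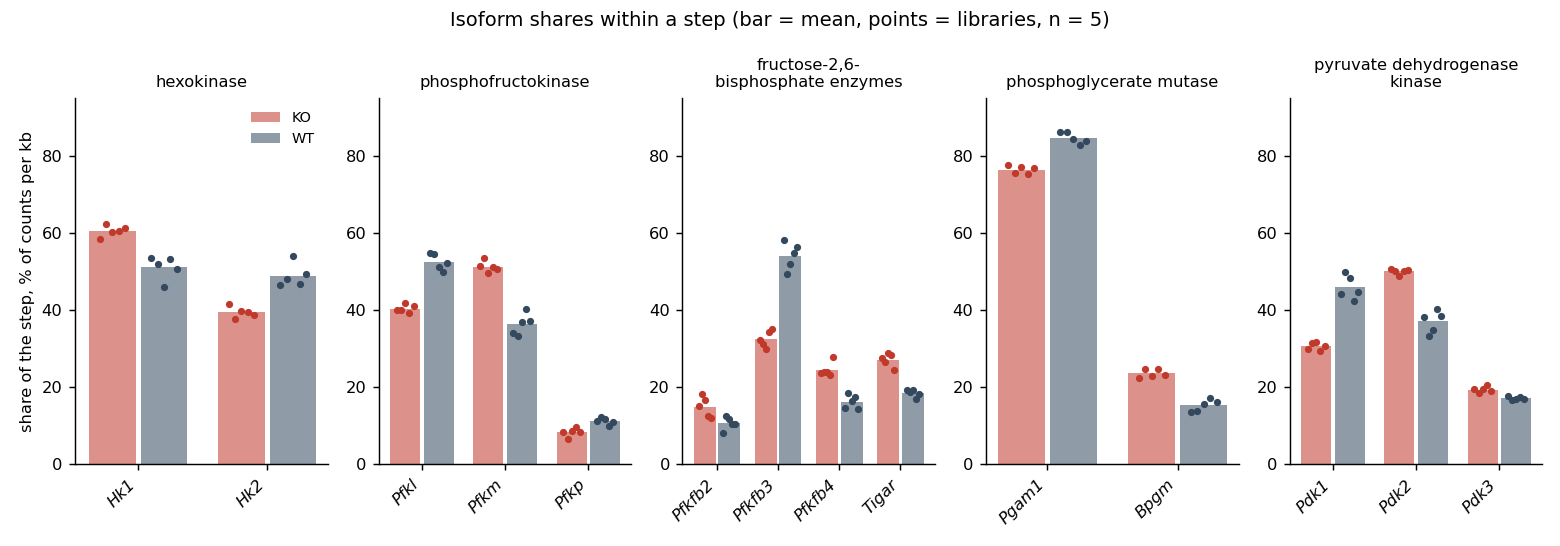
Share of each isoform in the counts per kilobase of exon of its step, in percent, for 5 steps (bars are means, points the 5 KO and 5 WT libraries). Hk2, Pfkl, Pfkp, Pfkfb3, Pgam1 and Pdk1 take a smaller share in KO than in WT, and the shares of Hk1, Pfkm, Pfkfb4, Tigar, Bpgm, Pdk2 and Pdk3 are larger, with no overlap between the libraries of the 2 genotypes in any of these 13.

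Enolase makes phosphoenolpyruvate. Eno1, its form in most tissues (ENSMUSG00000063524.13, chromosome 4, 150236721 to 150248879), had 272, 260, 267, 264 and 292 CPM in KO libraries, against 638, 565, 445, 410 and 478 CPM in WT libraries. The KO libraries lay close together and the lowest WT library stood well above them. The KO mean was 53.4% of the WT mean and the log2 fold change was -0.90 (SE 0.11, adjusted p = 0.00027). Eno2, the neuronal form (chromosome 6, 124760053 to 124769673), had 6.25, 5.73, 6.50, 4.97 and 7.51 CPM in KO libraries, against 7.91, 9.88, 8.81, 11.02 and 9.20 CPM in WT libraries. KO 5 and WT 1 came close without overlap, and the log2 fold change was -0.60 (SE 0.12, adjusted p = 0.0066). The 10 markers of nerve and Schwann cells summed to 248 to 314 CPM in KO and 231 to 267 CPM in WT libraries, with 3 of the 7 tested higher in KO, none lower and none at 0 in all libraries. Eno3, the muscle form, averaged 5.74 ± 0.66 CPM in KO and 7.31 ± 1.09 CPM in WT with overlap (log2 fold change -0.35, SE 0.12), which passed in DESeq2 and without WT 4 but not in the fit used here (adjusted p = 0.074). Eno1 was 91.6% ± 0.52 of enolase counts per kilobase in KO and 93.7% ± 0.85 in WT.

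Pyruvate kinase ends the pathway and was the exception among the core enzymes. Pkm (ENSMUSG00000032294.17, chromosome 9, 59656368 to 59679375) had 1171, 1138, 1151, 1156 and 1088 CPM in KO libraries, against 1497, 1276, 1093, 1152 and 1232 CPM in WT libraries. The KO libraries lay inside or just below the range of the WT libraries. The log2 fold change was -0.13 (SE 0.08, 95% interval -0.31 to 0.05) and did not pass (adjusted p = 0.29). The interval leaves out the estimates for the other core enzymes, the smallest of which was -0.46 in Gapdh. It overlaps the 95% interval of Gapdh, -0.68 to -0.24, and the difference between the 2 genes was not tested. The table counts Pkm as 1 gene, so its PKM1 and PKM2 splice forms were not told apart.

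The pyruvate dehydrogenase kinases keep pyruvate out of the mitochondrial acetyl-CoA step. Pdk1 (ENSMUSG00000006494.11, chromosome 2, 71873224 to 71903858) had 79.8, 84.5, 86.5, 75.9 and 80.2 CPM in KO libraries, against 159, 160, 150, 126 and 138 CPM in WT libraries. The groups were far apart, and the log2 fold change was -0.85 (SE 0.07, adjusted p = 2.1e-05). Pdk2 had 55.0, 54.7, 54.3, 52.8 and 53.8 CPM in KO libraries, against 56.1, 43.3, 44.0, 48.4 and 48.6 CPM in WT libraries. The KO libraries of Pdk2 lay above 4 of the 5 WT libraries and below WT 1. Its log2 fold change of 0.17 did not pass (SE 0.07, adjusted p = 0.11), but passed with total counts, with the keratocyte covariate and without WT 1. Pdk3 averaged 16.9 ± 0.59 CPM in KO and 18.0 ± 1.66 CPM in WT (log2 fold change -0.09, adjusted p = 0.41).

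Pdk1 made up 30.6% ± 0.99 of the counts per kilobase of the 3 kinases in KO and 45.9% ± 3.14 in WT. Pdk2 made up 50.05% ± 0.70 in KO and 37.0% ± 2.84 in WT. Per kilobase, Pdk2 was the most abundant of the 3 in every KO library and Pdk1 in every WT library. The order in KO depended on the division by exon length, 7779 bases for Pdk1 and 3163 for Pdk2. In CPM, Pdk1 lay above Pdk2 in every KO library, at 75.9 to 86.5 against 52.8 to 55.0 CPM.

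Set side by side per kilobase of exon, the most abundant members in KO were Pkm (228 ± 6.32 CPM per kilobase), Aldoa (190 ± 8.82), Tpi1 (121 ± 8.47) and Pgk1 (113 ± 11.4). In WT they were Aldoa (276 ± 36.7), Pkm (250 ± 31.0), Tpi1 (235 ± 46.5) and Pgk1 (174 ± 24.0). By this measure Aldoa stood above Pkm in every WT library, whereas in KO Pkm stood above Aldoa in every library. In CPM not divided by length, Pkm stood above Aldoa in every library of both genotypes. The ranges of Aldoa, Pkm and Tpi1 per kilobase over the WT libraries overlapped. These levels leave out near-identical copies, given below, which held 82.7% of the summed counts for Gapdh and 32.9% for Pgk1. With copies added, not per kilobase, Gapdh had 908 CPM in KO and 1228 CPM in WT. Aldoa had 556 and 806 CPM. The order per kilobase with copies added was not worked out. Summed by step, the KO level was lowest relative to WT for triosephosphate isomerase (51.6% of WT), the 2 fructose-1,6-bisphosphatases (53.8%) and enolase (54.7%). Phosphofructokinase was at 64.0%, hexokinase at 73.9% and the pyruvate dehydrogenase kinases at 83.3%. Pyruvate kinase was at 91.2%, and of the 15 steps it alone had libraries of the 2 genotypes that overlapped.

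Several of these genes have near-identical copies elsewhere in the genome, most of them processed pseudogenes, among which an aligner can divide reads. Copies were taken as annotated genes with at least 90% identity over at least 200 bases. Genes that overlap the member itself on the genome were not counted as copies (Pitrm1 for Pfkp, Gm29427 for Pfkfb2 and Gm49759 for Pkm). Adding their counts changed the call of none of the 3 members, and the log2 fold change with them was -0.08 for Pfkfb2 and -0.14 for Pkm. For Gapdh, 180 copies held 82.7% of the summed counts, so that its own 155 CPM in KO and 213 CPM in WT are part of a sum of 908 ± 33.9 CPM in KO and 1228 ± 210 CPM in WT. The sum fell by 0.44 on the log2 scale (adjusted p = 0.014), close to the fall of the gene alone. For Pgk1, 4 copies held 32.9% of the summed counts, for Eno1 7 copies held 25.9%, and for Pgam1 3 copies held 23.5%. The sums of these 3 genes and their copies had log2 fold changes of -0.62 for Pgk1, -0.90 for Eno1 and -0.62 for Pgam1. Copies of Pkm held 5.41% of its sum, and those of Gpi1, Tpi1 and Aldoa less than 3%. Adding the copies changed the call of none of these 8 genes.

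**Figure D4:**
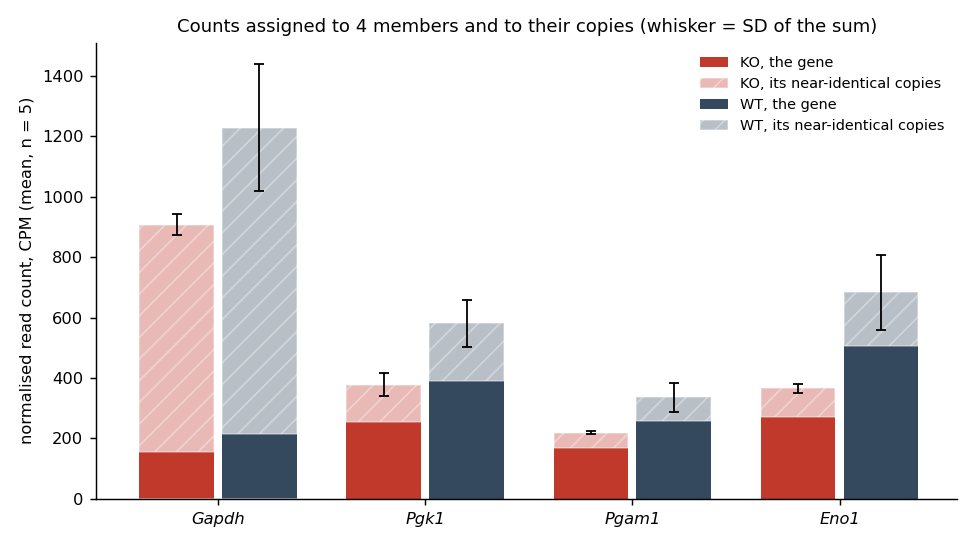
Mean CPM assigned to 4 members (solid) and to their near-identical copies (hatched), stacked, in KO and WT libraries; whiskers are the SD of the sum over 5 libraries. The copies take most of the Gapdh counts and a smaller part of those of Pgk1, Pgam1 and Eno1, and each KO stack is lower than its WT stack.

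The members also differed in how much the libraries of a genotype spread. The coefficient of variation (SD over mean) was larger in WT than in KO for 21 of 30 tested members, with a median of 7.29% in KO and 12.5% in WT, whereas it was larger in WT for 46.0% of all genes tested. For 8 core enzymes, Gpi1, Aldoa, Tpi1, Gapdh, Pgk1, Pgam1, Eno1 and Pkm, WT 1 was the highest WT library in all 8 and WT 2 the next in 7. The lowest WT library was WT 4 in 5 of them and WT 3 in 3. Without WT 1, the spread was larger in WT for 17 of 30 members (56.7%) and for 39.0% of all genes, and the median log2 fold change of the tested members was -0.40.

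**Figure D5:**
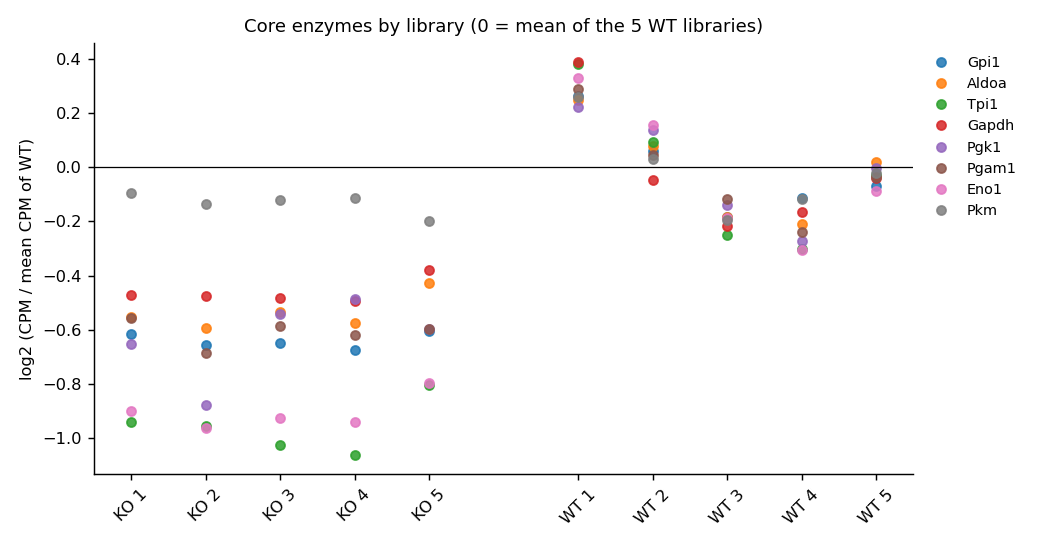
Log2 ratio of the CPM of 8 core enzymes in each library to their mean over the 5 WT libraries (line at 0). In KO libraries Pkm lies nearest the line and Tpi1 and Eno1 lie at the bottom; in WT libraries all 8 are high together in WT 1 and lie below the line together in WT 3 and WT 4.

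Most tested genes around the pathway, taken from lists of named genes, were not called lower, but some lists held a larger share than all genes. Over all genes tested, 7.73% were lower and 7.59% higher. Lower were 7 of 17 tested genes of glycogen metabolism, 4 of 17 other isoforms and transporters, 3 of 15 regulators and 2 of 8 genes for lactate and pyruvate handling. In each of the other lists at most 1 gene was lower. Among 17 tested isoforms and transporters that are not members, 4 were lower and 2 higher, with a median log2 fold change of 0.09. The 4 were Pgm1 (given above), Eno1b, a near-identical copy of Eno1 (51.8 ± 1.97 CPM in KO, 95.5 ± 17.4 CPM in WT), and the transporter genes Slc2a9 and Slc2a13 of the Slc2a family. The 2 were the ADP-dependent glucokinase Adpgk (31.8 ± 1.77 CPM in KO, 27.8 ± 1.62 CPM in WT, adjusted p = 0.043) and Pdk4 (3.07 ± 0.36 CPM in KO, 2.26 ± 0.38 CPM in WT, adjusted p = 0.0499). Pgm1 shares 398 exonic bases with Itgb3bp on the other strand and Adpgk 194 with Bbs4.

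Downstream of pyruvate, 2 of 8 tested genes for lactate and pyruvate handling were lower and none higher, with a median of 0.00. Slc16a3, the lactate exporter MCT4, had a log2 fold change of -1.98 (SE 0.14, adjusted p = 6.6e-06), and Ldha, the lactate dehydrogenase subunit that favours lactate, one of -0.94 (SE 0.11, adjusted p = 0.00027). Ldhb, the other main subunit, averaged 59.0 ± 3.22 CPM in KO and 58.8 ± 3.15 CPM in WT. Slc16a1, the transporter MCT1, averaged 46.0 ± 6.93 CPM in KO and 45.8 ± 2.66 CPM in WT. Of 8 genes of the pyruvate dehydrogenase complex and its phosphatases, 1 was higher, the phosphatase Pdp2 (10.8 ± 0.83 CPM in KO, 6.69 ± 0.45 CPM in WT, log2 fold change 0.69, adjusted p = 0.00020), and none was lower.

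In the pentose phosphate pathway, which branches off at glucose-6-phosphate, 1 of 10 genes was lower and 2 were higher, with a median of 0.11. The 2 were the dehydrogenases of its oxidative arm, G6pdx (39.3 ± 6.79 CPM in KO, 28.6 ± 3.07 CPM in WT, log2 fold change 0.46, adjusted p = 0.017) and Pgd (70.4 ± 4.24 CPM in KO, 58.8 ± 5.05 CPM in WT, log2 fold change 0.26, adjusted p = 0.021), and the lower gene was Prps2, which activates ribose-5-phosphate for nucleotide synthesis (log2 fold change -0.31, adjusted p = 0.020). Glycogen metabolism was the list outside glycolysis with the most lower genes, 7 of 17 tested, with none higher and a median of -0.14. The lower ones included the muscle glycogen phosphorylase Pygm (15.6 ± 0.93 CPM in KO, 23.6 ± 2.16 CPM in WT, log2 fold change -0.60, adjusted p = 0.00023) and the glycogen synthase Gys1 (10.2 ± 0.67 CPM in KO, 17.2 ± 2.11 CPM in WT, log2 fold change -0.75, adjusted p = 0.00027). On the other strand, G6pdx shares 418 exonic bases with Ikbkg and Gys1 310 with Ruvbl2. Of 10 genes for galactose, fructose, mannose and hexosamine entry, 1 was lower (Galm) and 2 were higher (Gfpt2 and Galk2). Of 3 tested genes of gluconeogenesis, 1 was higher (Pck2, log2 fold change 0.25, adjusted p = 0.0285).

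Among 15 tested regulators of glycolytic genes, 3 were lower, none was higher and the median was 0.00. Egln1, an oxygen sensor that marks the hypoxia-inducible factors for decay and is itself one of their targets, averaged 94.8 ± 6.61 CPM in KO and 131 ± 11.8 CPM in WT (log2 fold change -0.46, adjusted p = 0.0014). Hif3a had a log2 fold change of -1.06 (SE 0.25, adjusted p = 0.015) and Arnt, the shared partner of these factors, one of -0.22 (SE 0.06, adjusted p = 0.032). Hif1a averaged 1200 ± 119 CPM in KO and 1422 ± 166 CPM in WT and did not pass (log2 fold change -0.25, SE 0.10, adjusted p = 0.10). Epas1, which encodes the related factor HIF-2α, averaged 129.5 CPM in KO and 131 CPM in WT. Hif1a, Epas1, Ldhb and Slc16a1 were chosen for naming after their values had been seen.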

How the data were processed

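Polyadenylated RNA was measured in 5 KO and 5 WT pools. Per the labels' protocols, a stranded kit was used on 100 ng of RNA a pool, with 12 PCR cycles and paired-end reading. The authors deposited unnormalized counts of reads for each gene and library. Tools named in the submitters' processing notes are HISAT2 2.1.0, featureCounts (Subread 1.6.4), Trim Galore 0.6.4 and cutadapt 2.4, with the build GRCm38.p6. Not given in the sources used here are the strand setting, how reads with several matches were counted, and the annotation release.

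All 55450 gene identifiers matched GENCODE M21, which gave symbols, positions and exon lengths. A second identifier named Aldoa, with 60 counts over all libraries, was not used. In R 4.3.3, edgeR 4.0.16 kept genes with filterByExpr (minimum count 10, minimum total 15), scaled libraries by TMM and tested KO against WT with the quasi-likelihood F test. Adjustment by Benjamini-Hochberg ran over the 17729 tested genes, which held 99.9% of the counts, and all adjusted p-values come from this test where no other is named. The common biological coefficient of variation came to 16.3%. CPM values use TMM-scaled library sizes; isoform shares divide them by exon length. The near-identical copies were found with blastn 2.17.0+.

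The alternatives were other scalings (DESeq2 size factors, upper quartile, total counts), DESeq2 1.42.0, limma-voom (limma 3.58.1), no filter, a minimum of 1 CPM in 5 libraries, the replicate number as a block, the epithelial or the keratocyte markers as covariate, only KO 3 and KO 4 against WT, and each library left out in turn. Added after the data had been seen were the spread without WT 1 and the counts of an overlapping gene added to Pfkp, Pfkfb2 or Pkm. Members, lists and alternatives were chosen with earlier results of these data known. Values in every library are given for called members with a log2 fold change of at least 0.5 in size and a mean of at least 5 CPM and for the most abundant isoform of each step. From each related list the 2 called genes with the smallest p in each direction are named; further names in small groups were chosen after their values were seen. No 2 libraries of a group matched within counting noise. Nothing in the labels ties a pool to a batch or day, and p-values measure the spread between these pools. Reads carry no molecular identifiers and counting intervals are not given.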

Additional observations from a re-analysis of the deposited data

Results flagged for a closer look

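In 60 groups of 5 libraries, 1 for each tested member and genotype, 3 had a highest library that stood apart from the rest by Dixon's criterion, and chance marks about 1 group in 20. Gapdh in KO 5 was at 164.26 CPM, with the nearest KO library at 154.05 CPM. Gapdh in WT 1 was at 279.25 CPM, with the nearest WT library at 207.54 CPM. Pdk3 in WT 1 was at 20.9 CPM, with the nearest WT library at 17.6 CPM.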

How the results depend on the processing

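The count of members lower in KO was 14 to 19 over all alternatives, and 14 of the 18 lower members were called in each of them. Hk1 lost its call in 13 settings, Galk1 and Fbp2 with the epithelial covariate and with KO 3 and KO 4 only, and Gapdh with KO 3 and KO 4 only; the cause was not tested. The count of members higher in KO was 2 with total counts, 1 in DESeq2, 1 with the filter at 1 CPM, 2 with the keratocyte covariate and 0 to 2 with a library left out (2 without WT 1). Over all genes, 601 were lower and 496 higher with the epithelial covariate, and 578 were lower and 527 higher with KO 3 and KO 4, which leaves 3 fewer libraries. With a library left out, 965 to 1666 were lower and 836 to 1532 higher (836 without WT 3, 850 without WT 5, 895 without KO 1). The median of the members was -0.55 to -0.40 with a library left out. Members that changed sign were never called: Pgm2 (-0.0079 without KO 3; -0.0079 to 0.084 with a library left out), Pfkfb1 (-0.033 in limma-voom, -0.11 with the epithelial and -0.079 with the keratocyte covariate; -0.18 to 0.41 with a library left out), Pfkfb4 (0.011 with total counts; -0.075 to 0.034 with a library left out) and Tigar (0.044 with KO 3 and KO 4). With counts not divided by length, the share in KO minus that in WT was -0.63 points for Slc2a3, 11.4 for Pfkm, 11.2 for Bpgm and -0.95 for Eno1.

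The replicate numbers did not pair the libraries. The deviations of same-numbered KO and WT libraries correlated at -0.42 to 0.09. No library correlated best with the library of its own number in the other group. With the replicate number as a block, 17 members were lower and 0 higher, and 750 of all genes were higher. The reach of the test for small changes did not simply follow abundance. Hk1, called at a log2 fold change of -0.19, had an SE of 0.05, as did Pfkm. The SE was 0.08 for Pkm and 0.09 for Aldoa, which were far more abundant. It was 0.07 for the scarcer Pdk3 and Pgm2. Pfkfb1, Hkdc1, Fbp1 and Pgam2 had too few counts to show any but large changes.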
